A study of Mus musculus with 6 samples.

Results

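Complex III and cytochrome oxidase are the last pair of proton-pumping enzymes before oxygen in the mitochondrial respiratory chain. Complex III (the cytochrome bc1 complex) takes electrons from ubiquinol and passes them to cytochrome c, and cytochrome oxidase (complex IV) passes them from cytochrome c to oxygen. Each enzyme joins parts made inside mitochondria with subunits encoded in the nucleus, which in complex III include the electron-carrying products of Cyc1 and Uqcrfs1. Several nuclear subunits of cytochrome oxidase exist as a ubiquitous form and a form found mainly in muscle, lung or testis. The genes described here are the rows of the deposited expression table whose names begin with Uqcr or with Cox and a digit, plus Cyc1, without the 1 pseudogene row marked -ps. They number 36 of the 34745 genes in the table: 9 complex III subunits, 10 ubiquitous cytochrome oxidase subunits, 7 tissue isoforms and 10 genes grouped as assembly factors.

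The table holds 6 RNA sequencing libraries of spermatogonial stem cells grown in culture from mice, germ cells that renew themselves and feed sperm production. All 6 came from postnatal day 6 mice of a DBA/2J X c57BL/6J cross (both groups alike) and are labelled as passages 15 to 20. Of these, 3 are from untreated cells and 3 from cells kept for about 4 days in medium with 100 µM bisphenol A (BPA), a plastics monomer studied as an endocrine disruptor. The titles name no vehicle control, so an effect of a solvent and one of BPA cannot be told apart. Whether replicates come from different cultures or animals is not stated, and p-values therefore measure the spread between these samples, which may be technical.

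Summed counts were 13453280 to 22286517 per library, and 13638 to 16013 genes had a count. Replicates differed by more than sampling noise, most of all the pairs that include BPA replicate 2 (chi-square per degree of freedom 64.2 and 84.5, against 18.9 to 25.4 for the other pairs). The germ cell label held: all 10 germ cell markers were counted, with a summed level of 1614 to 1676 CPM (normalised read counts scaled to library size) in untreated and 1394 to 1473 CPM in BPA libraries. The list did not move as one: of the 10 tested, 1 passed as higher and 1 as lower. The values that follow are examples of ranges and do not name the called genes. Tex101 was at 697 to 764 CPM untreated and 480 to 595 CPM under BPA, and Dnd1 at 356 to 393.5 and 225 to 295 CPM. Sall4 went the other way, at 41.8 to 58.35 and 72.2 to 116 CPM. Ddx4 and Dazl were below every untreated library in BPA replicate 2 (9.61 and 114 CPM) and above every one in BPA replicates 1 and 3. Fibroblast markers summed to 304 to 350.4 CPM and 228 to 479 CPM, with Col1a1 and Fn1 counted in every library. Most of the sum was Fn1 (190 to 219 and 168 to 385 CPM). Col1a2 (23.3 to 37.5 and 14.4 to 21.6 CPM) and Col3a1 (6.24 to 12.6 and 0.938 to 3.96 CPM) were lower in every BPA library. Of the 8 fibroblast markers tested 0 passed. Sertoli markers summed to 14.1 to 19.7 CPM and 34.8 to 51.3 CPM, with Fshr and Rhox5 at 0. Most of the BPA sum was Sox9 (20.6, 30.2 and 22.8 CPM), which alone of the 4 tested passed, as higher. Gata4 was also higher in every BPA library (0.871 to 1.88 and 3.42 to 7.68 CPM). Gata1 went the other way, with 12, 22 and 0 counts untreated and 0, 0 and 0 under BPA. Spermatid and spermatocyte markers summed to 27.0 to 52.4 CPM and 16.3 to 129 CPM, most of it Sycp1, with Prm2, Tnp2, Acrv1 and Pgk2 at 0. What part these markers have in the results was not tested. The libraries are bulk samples, in which fewer cells of a type and less RNA per cell cannot be told apart.

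Of the 36 genes, 33 had enough counts to be tested. Under BPA 8 were lower and 1 was higher (edgeR's quasi-likelihood test, Benjamini-Hochberg adjusted over 13287 genes, threshold 0.05). Over all tested genes 6.28% were lower and 4.37% higher, so the share of lower genes here (8 of 33) was above that background and the share of higher genes (1 of 33) was not. Many of these genes are abundant. Among genes with a mean of at least 20 CPM 11.9% were lower, and of the 21 complex III and cytochrome oxidase genes at that level 8 were lower. The lower genes were the complex III subunits Uqcrh, Uqcr11 and Uqcrc1 and the cytochrome oxidase subunits Cox7c, Cox7a2, Cox6a1, Cox6b1 and Cox6c. The higher gene was Cox6a2, the heart and skeletal muscle form of subunit VIa. No assembly factor passed the test. In 14 of the 33 genes every BPA library was below every untreated one (15.7% of all tested genes), and in 5 every BPA library was above (15.6%, a share near that of these genes). The median log2 fold change (BPA over untreated) was -0.48 over the 33 genes and 0.10 over all tested genes. The second value was 0.21 with scaling by library size alone.

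**Figure D1:**
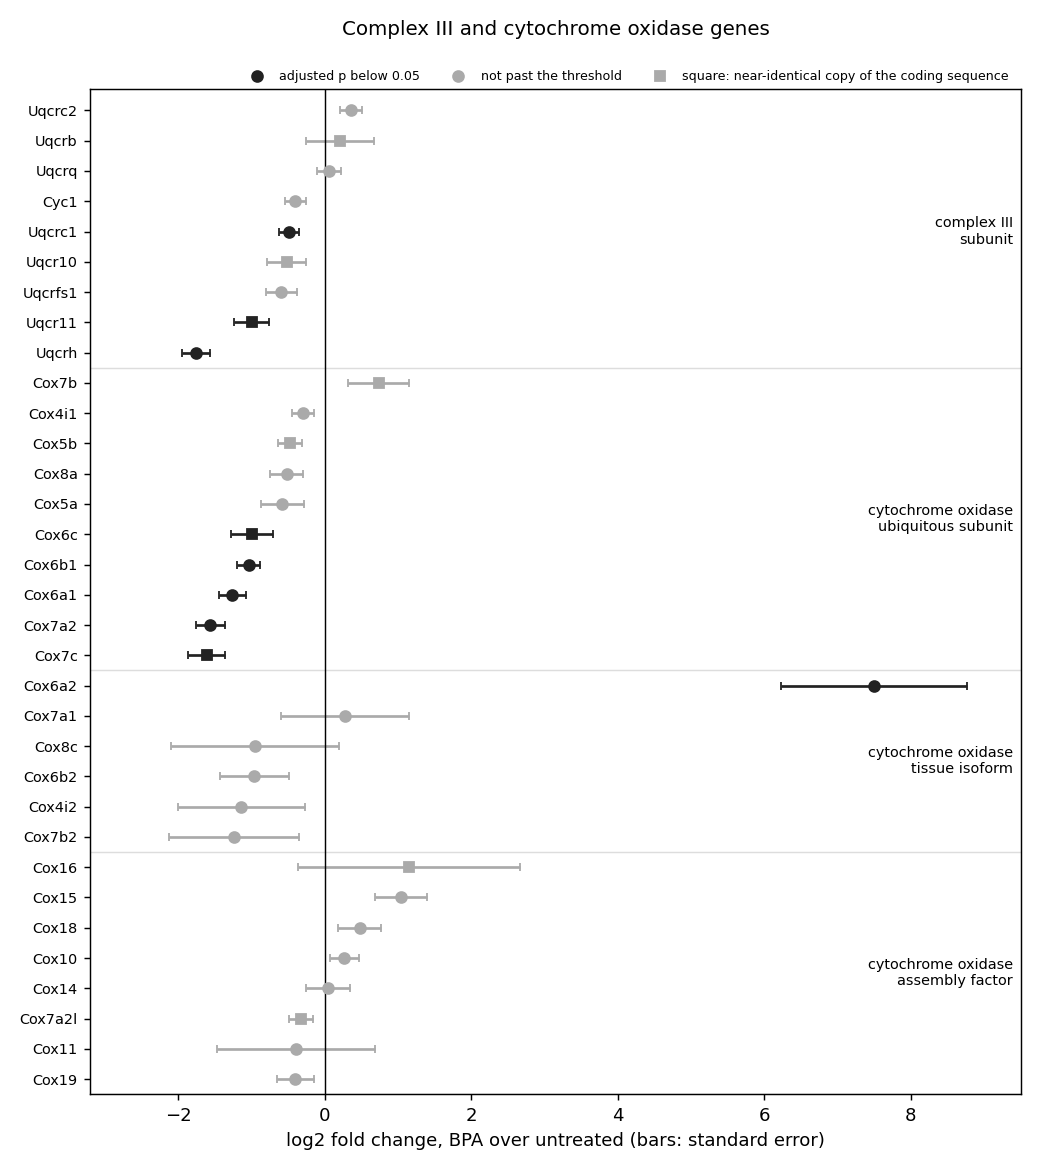
Log2 fold change (BPA over untreated, x axis) with its standard error for the 33 tested genes, ordered by value within each role; black symbols passed the adjusted threshold of 0.05, and squares mark genes whose coding sequence has a near-identical copy elsewhere in the annotation. Subunits spread from -1.76 (Uqcrh) to 0.73 (Cox7b), the assembly factors lie on both sides of 0 and Cox6a2 stands alone at 7.49, a fitted value that depends on how 0 counts are handled.

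Uqcrh had the largest fall of the 33 genes. It encodes the hinge subunit of complex III, a small acidic protein next to cytochrome c1 (ENSMUSG00000063882, mm10 chromosome 4, 116066965 to 116075071). Its normalised counts were 143, 139 and 124 CPM in the untreated replicates (always given in the order 1, 2, 3) and 47.4, 35.0 and 37.3 CPM in the BPA ones. Every BPA library was below every untreated one, and the BPA mean was 29.5% of the untreated mean. The log2 fold change was -1.76 (SE 0.19, edgeR adjusted p = 0.000189).

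Cyc1, its neighbour in the complex, differed much less. The gene, which encodes the haem-bearing cytochrome c1 to which the hinge protein binds, was at 818, 871 and 770.5 CPM untreated and 594, 715 and 554 CPM under BPA. Its groups did not overlap, yet it missed the threshold (-0.40, SE 0.14, edgeR adjusted p = 0.0892). Cyc1 passed as lower when BPA replicate 2 was left out (edgeR adjusted p = 0.00208), in DESeq2 (adjusted p = 0.0317), with scaling by library size (0.0491) and with a replicate block (0.0492). Once GC content and gene length were corrected for (the GC and length correction) it was at 0.068 (edgeR adjusted p = 0.707). Per unit of gene length (deposited FPKM), Uqcrh stood at 0.0966, 0.0886 and 0.0891 of the Cyc1 level in untreated libraries and at 0.0443, 0.0271 and 0.0373 under BPA. The ratios to Cyc1 were chosen after the values were seen and are given as a description.

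Of the core proteins of complex III, Uqcrc1 passed as lower and Uqcrc2 had higher values that did not pass. Uqcrc1, the most abundant of the 36 genes in CPM, was at 1582, 1637 and 1401 CPM untreated and at 1067, 1277 and 947 CPM under BPA. It fell by 0.49 on the log2 scale (SE 0.14, edgeR adjusted p = 0.0424). Leaving out 1 library ended the call in 5 of 6 cases, all but BPA replicate 2 (edgeR adjusted p 0.0557 to 0.197). Uqcrc2 was at 146, 136 and 142 CPM untreated and 167, 198 and 179.5 CPM under BPA. All BPA values of Uqcrc2 were above all untreated ones, but it did not pass the test (0.36, SE 0.15, edgeR adjusted p = 0.159), except with scaling by library size alone (0.0306). Relative to Cyc1 per length, Uqcrc1 was at 0.363 ± 0.0112 untreated and 0.341 ± 0.00904 under BPA, and Uqcrc2 at 0.0594 ± 0.00518 and 0.101 ± 0.00911 (SD, n = 3 per group).

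Uqcr11, a small subunit at the periphery of the complex, was at 78.1, 86.2 and 79.8 CPM untreated. Under BPA it was at 33.8, 32.4 and 56.1 CPM, with BPA replicate 3 nearest to the untreated libraries. The BPA mean was 50.1% of the untreated mean (edgeR adjusted p = 0.0212). Relative to Cyc1 per length Uqcr11 was at 0.107 ± 0.00438 and 0.0730 ± 0.0318 (SD, n = 3 per group), with overlapping groups. Leaving out any untreated replicate or BPA replicate 1 ended that call (edgeR adjusted p up to 0.0995), as did scaling by library size (0.0533) and the GC and length correction (0.318, log2 fold change -0.46). Uqcrfs1, which encodes the Rieske iron-sulfur protein that carries electrons to cytochrome c1, was at 104 ± 3.77 CPM untreated and 68.7 ± 19.6 CPM under BPA (SD, n = 3 per group) and missed the threshold (edgeR adjusted p = 0.101). DESeq2 called it lower (adjusted p = 0.0464). Uqcrq, a subunit near the ubiquinone sites, was at 131 ± 6.84 and 137 ± 16.3 CPM, and its groups overlapped. Uqcr10 was at 37.8 ± 5.31 and 26.3 ± 5.71 CPM and Uqcrb at 6.24 ± 1.84 and 7.24 ± 2.12 CPM. Neither gene passed.

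Among the ubiquitous subunits of cytochrome oxidase, 5 of 10 were lower under BPA and 0 higher, against 6.28% and 4.37% of all tested genes. All 10, and not the 5 alone, encode small proteins that surround the catalytic core. Cox7a2, the ubiquitous form of subunit VIIa (chromosome 9, 79755241 to 79759853), was at 115, 105 and 82.9 CPM untreated and at 34.5, 34.8 and 33.4 CPM under BPA. The BPA libraries lay within a narrow range, and the untreated ones spread more widely. The log2 fold change was -1.56 (SE 0.20, edgeR adjusted p = 0.000532).

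Cox7c, which encodes subunit VIIc (chromosome 13, 86044816 to 86046904), was at 142, 86.0 and 95.1 CPM untreated and at 29.9, 30.6 and 45.2 CPM under BPA. It fell by 1.61 on the log2 scale (SE 0.25, edgeR adjusted p = 0.00185). Untreated replicate 1 was well above the other untreated libraries, and the groups did not overlap.

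Cox6a1, the ubiquitous form of subunit VIa (chromosome 5, 115345642 to 115348981), was at 539.8, 471 and 470.1 CPM untreated and 163, 266 and 188 CPM under BPA. It fell by 1.26 on the log2 scale (SE 0.18, edgeR adjusted p = 0.00127). Cox6b1, the subunit that bridges the monomers of the oxidase dimer on the intermembrane side (chromosome 7, 30616974 to 30626151), was at 173, 168 and 203 CPM untreated and 85.8, 85.7 and 92.8 CPM under BPA. It fell by 1.04 on the log2 scale (SE 0.16, edgeR adjusted p = 0.00178). Neither gene had overlapping groups.

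Cox6c was the least stable of the 5 lower subunits. It was at 87.7, 71.9 and 44.8 CPM untreated and at 35.5, 24.6 and 42.4 CPM under BPA, so that untreated replicate 3 and BPA replicate 3 lay almost together. It fell by 0.99 on the log2 scale (SE 0.29, edgeR adjusted p = 0.0439). Leaving out untreated replicate 1 or 2, or BPA replicate 1 or 3, ended the call (edgeR adjusted p up to 0.217), as did upper quartile and library size scaling (0.051 and 0.0961). After the GC and length correction it passed at -1.31 (edgeR adjusted p = 0.00542).

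**Figure D2:**
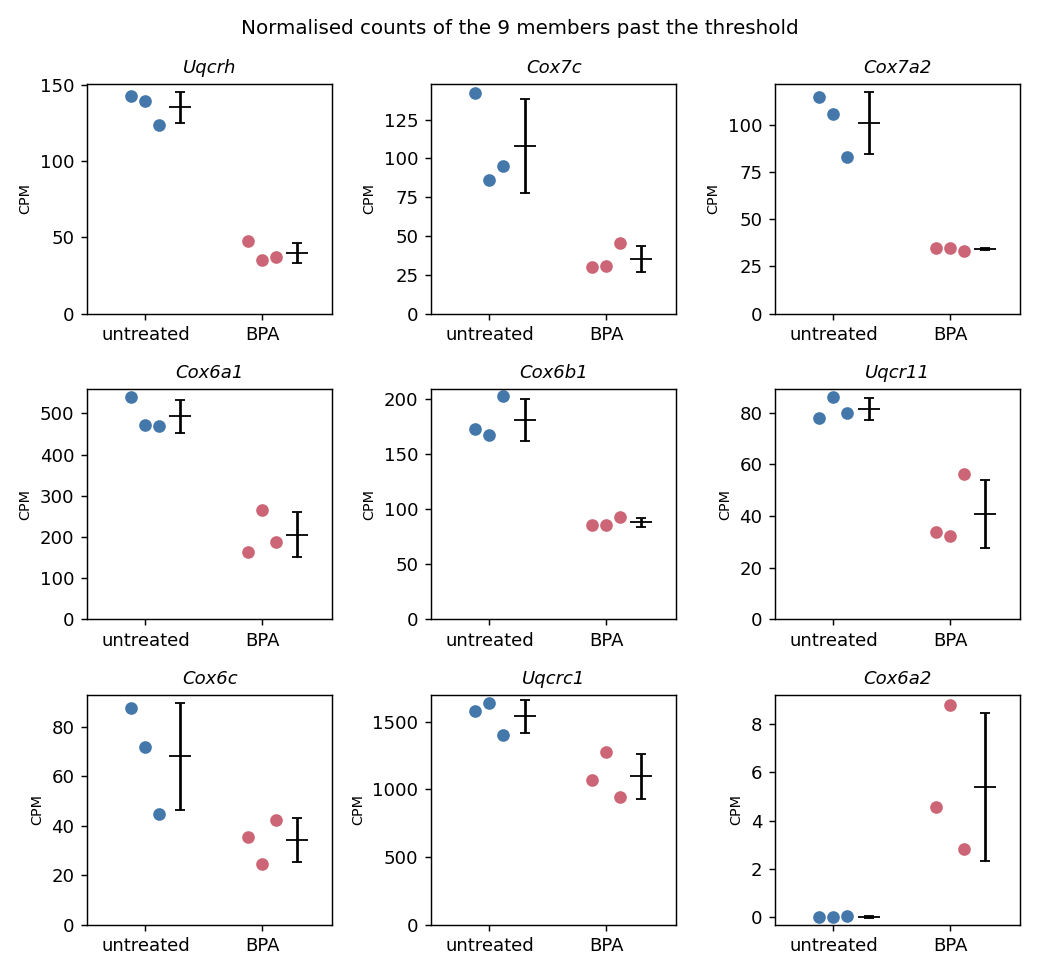
Normalised counts (CPM, y axis from 0, or just below it for Cox6a2) of the 9 genes past the threshold in each of the 3 untreated (blue) and 3 BPA (red) libraries, with the group mean and SD in black. Groups do not overlap in any panel, and the gap is narrowest for Cox6c (44.8 CPM in untreated replicate 3 against 42.4 CPM in BPA replicate 3).

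The other 5 ubiquitous subunits did not pass. Cox4i1, the regulatory subunit IV and the most abundant cytochrome oxidase gene in CPM, was at 1072, 942 and 885 CPM untreated and 720.4, 925 and 711 CPM under BPA (log2 fold change -0.30, SE 0.14, edgeR adjusted p = 0.222). Cox8a, a small membrane subunit, was at 303, 236 and 205 CPM untreated and 123, 235 and 159.8 CPM under BPA (-0.52, SE 0.23, edgeR adjusted p = 0.178). In both genes BPA replicate 2 lay among the untreated libraries. With that library left out both passed as lower (edgeR adjusted p = 0.00804 and 0.00631), whereas after the GC and length correction Cox4i1 was at -0.07 and Cox8a at 0.11. Cox5b, which binds zinc, was at 201 ± 25.0 and 144 ± 18.9 CPM with no overlap (SD, n = 3 per group). It missed the threshold (edgeR adjusted p = 0.0922), and it passed without BPA replicate 2, in DESeq2 and after the correction (adjusted p = 0.0181, 0.0348 and 0.0212). Cox5a was at 44.5 ± 5.49 and 29.7 ± 11.2 CPM (edgeR adjusted p = 0.249). Cox7b was at 6.03, 7.38 and 4.64 CPM untreated and 10.9, 7.68 and 11.4 CPM under BPA. It was higher in each BPA library than in any untreated one (0.73, SE 0.42) and missed the threshold (edgeR adjusted p = 0.302).

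The levels of the 5 lower subunits were also set against Cox4i1 per gene length. Cox7a2 was at 0.368 ± 0.0332 of the Cox4i1 level untreated and 0.156 ± 0.0201 under BPA. Cox6a1 was at 1.14 ± 0.0383 and 0.580 ± 0.0694, Cox7c at 0.167 ± 0.0316 and 0.0696 ± 0.0238, and Cox6b1 at 0.998 ± 0.188 and 0.601 ± 0.102 (ratios of FPKM, SD, n = 3 per group). Cox6c was at 0.0373 ± 0.00894 and 0.0243 ± 0.0091, and its groups overlapped. Cox4i1 was taken as the reference after the values were seen and the subunits were chosen for their fall, so these ratios are a description, and no difference between subunits was tested.

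A set of 5 genes, Uqcrh, Cox7a2, Cox7c, Cox6a1 and Cox6b1, kept the call as lower in all 15 alternative analyses (edgeR, DESeq2 and limma, highest adjusted p 0.00495, 0.0115, 0.0247, 0.0195 and 0.0186). When untreated replicate 1 or 2, or BPA replicate 1, was left out, these 5 were the lower genes, and without BPA replicate 2 the number lower was 12, with Cyc1, Cox4i1, Cox5b and Cox8a added to the 8. Without BPA replicate 2 the number lower over all genes also rose, to 1600 of 13708 from 835 of 13287.

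The RNA of these libraries showed a length and composition trend that reaches these genes. Over all tested genes the median log2 fold change rose from -0.14 in the quartile with the shortest deposited gene length to 0.30 in the longest, and fell from 0.38 in the quartile with the lowest GC content to -0.13 in the highest. Of the 33 tested genes 25 belong to the shortest quartile, in which 9.94% of all genes were lower. Across the 33 genes Spearman's rho between log2 fold change and length was 0.26, and with GC content it was -0.07. These points share the same 6 libraries, and no test was made. With the GC and length correction, 8 genes were again lower: Cox5b entered and Uqcr11 left, and 7 were shared. Over all 13287 tested genes the number lower rose from 835 to 1262 with the correction. Uqcrh was then at -1.89, Cox7c at -1.56, Cox7a2 at -1.16, Cox6a1 at -0.81 and Cox6b1 at -0.60. The median of the 33 genes moved from -0.48 to -0.26, and that of all tested genes from 0.10 to 0.0067.

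**Figure D3:**
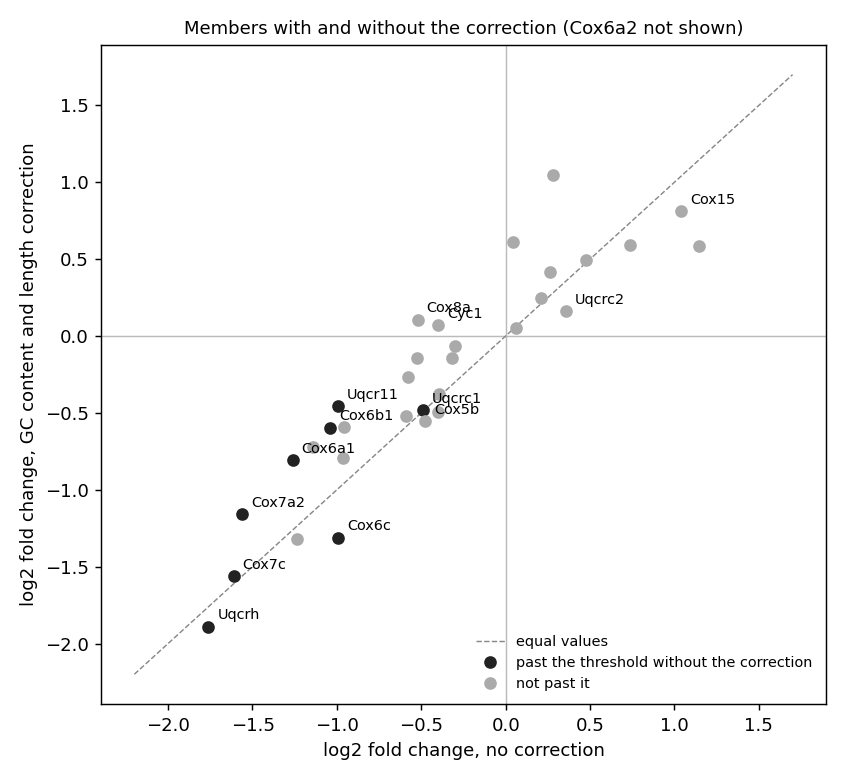
Log2 fold change (BPA over untreated) of the tested genes other than Cox6a2 without (x axis) and with (y axis) the GC and length correction; black points passed the threshold without the correction and the dashed line marks equal values. Uqcrh and Cox7c stay near the line, Cox7a2, Cox6a1 and Cox6b1 move toward 0 and Cyc1 and Cox8a change sign.

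Promoters of Uqcrh, Cox7a2 and Cox6a1, which kept the call as lower in every alternative, as did Cox7c and Cox6b1, are shown as examples. These genes were chosen for their fall in these data, and whether their promoters have a part in it was not tested. RefSeq promoter windows (GRCm38.p6) were matched by symbol for 25 of the 36 genes, and the 250 bases upstream of the annotated start were searched on both strands for CCGGAAG (the core bound by ETS factors such as GABP, a known regulator of respiratory genes) and for the core of the NRF1 site. Matches are in capitals, and each window is on the minus strand of the genome, written 5′ to 3′ in the direction of transcription.
Uqcrh, chr4:116075071-116075320: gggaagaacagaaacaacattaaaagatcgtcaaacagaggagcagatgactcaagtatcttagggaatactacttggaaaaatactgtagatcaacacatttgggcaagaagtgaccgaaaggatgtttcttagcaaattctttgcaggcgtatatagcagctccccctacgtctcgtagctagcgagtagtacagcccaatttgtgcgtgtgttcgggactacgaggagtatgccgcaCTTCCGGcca
Cox7a2, chr9:79759854-79760103: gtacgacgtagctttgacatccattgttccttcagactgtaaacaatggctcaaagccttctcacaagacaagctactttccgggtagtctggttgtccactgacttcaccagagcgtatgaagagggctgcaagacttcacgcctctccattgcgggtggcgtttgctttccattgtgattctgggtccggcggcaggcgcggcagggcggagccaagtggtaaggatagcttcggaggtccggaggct
Cox6a1, chr5:115348959-115349208: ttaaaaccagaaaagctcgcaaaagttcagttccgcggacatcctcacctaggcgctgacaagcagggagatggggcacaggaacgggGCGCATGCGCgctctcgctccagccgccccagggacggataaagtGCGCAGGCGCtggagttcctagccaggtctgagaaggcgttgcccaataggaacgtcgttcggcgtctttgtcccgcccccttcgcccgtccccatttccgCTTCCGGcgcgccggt

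The windows of Uqcrh and Cox6a1 each hold the ETS core close to the start (10 and 16 bases upstream), in both cases on the opposite strand. Cox6a1 also holds 2 NRF1 cores, 162 and 117 bases upstream, while the windows of Cox7a2 and Cox7c hold neither string. In all, 7 of the 25 windows hold the ETS core (Uqcr11, Uqcrh, Cox6a1, Cox6b1, Cox10, Cox16 and Cox20), against 7.83% of all 27025 genes in the promoter table and 15.5% of the 9933 tested genes found there. Of the lower genes 4 of 7 with a window hold it, and of the tested genes that did not pass 2 of 16. The 4 include Uqcr11, whose call ended in several alternatives. These groups follow the calls of these data, and a link between string and call was not tested. The NRF1 core is in 1 of the 25 windows and in 9.18% of those of tested genes. An exact 10-letter string searched for YY1 was in 0 of the 25 (0.775% of tested genes). Shorter YY1 strings were not searched. The stress element TGATGNAA, read by ATF4 with C/EBP partners, was also in 0 of the 25 (2.33% of tested genes). The string TGACNNNGC of the antioxidant response element was in 2 of 25, Cox11 and Cox16 (14.2% of tested genes). A match is a description of the letters and not a binding site.

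The tissue isoforms were all rare, at 12.2 CPM or less in every library, and Cox6a2 alone passed the test. Per gene length Cox7a1 had the highest mean of them in both groups (FPKM 14.0 ± 12.5 and 18.4 ± 9.24, SD, n = 3 per group), though with 0.408 FPKM in untreated replicate 2. Cox6a2 (ENSMUSG00000030785, chromosome 7, 128205435 to 128206387) had raw counts of 0, 0 and 1 in the untreated libraries and 70, 177 and 69 in the BPA libraries. In CPM it was at 0, 0 and 0.0726 untreated and at 4.58, 8.77 and 2.81 under BPA. The gene entered the test through its BPA counts alone. With 1 count against 316, scaled for effective library size, the ratio was 236, and its exact 95% interval, which covers counting error only, ran from 42.0 to 9346. The edgeR test gave an adjusted p of 0.00329, and the gene passed in each of the 15 alternatives (highest adjusted p 0.0403).

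The coding sequences of Cox6a2 and its ubiquitous counterpart Cox6a1 are printed to show how far they differ, since a read can be assigned to a gene only where they do. They come from the GENCODE vM21 transcripts, without the stop codon. Cox6a1 is shown from base 37 to base 336 of its coding sequence and Cox6a2 from base 1 to base 291, and the capitals mark the longest stretch they have in common.
Cox6a1: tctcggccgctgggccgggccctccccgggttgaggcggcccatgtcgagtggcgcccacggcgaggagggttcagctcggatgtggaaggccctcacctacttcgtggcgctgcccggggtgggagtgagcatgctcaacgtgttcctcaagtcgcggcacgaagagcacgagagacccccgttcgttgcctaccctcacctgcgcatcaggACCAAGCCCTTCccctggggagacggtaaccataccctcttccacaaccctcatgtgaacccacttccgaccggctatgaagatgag
Cox6a2: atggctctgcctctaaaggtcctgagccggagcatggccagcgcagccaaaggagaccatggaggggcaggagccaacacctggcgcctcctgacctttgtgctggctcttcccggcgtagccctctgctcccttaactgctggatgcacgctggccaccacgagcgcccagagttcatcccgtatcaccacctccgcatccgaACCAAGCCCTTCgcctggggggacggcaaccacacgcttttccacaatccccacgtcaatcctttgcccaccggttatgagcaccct

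Of 282 aligned bases 181 were identical (64.2%), and the longest shared run was 12 bases. Among the longest annotated transcripts of the other genes, none matched the Cox6a2 coding sequence at 95% identity or more. The gene lies within Itgad, whose exons cover 10.3% of its exon bases on the opposite strand. Itgad had 0 counts in all 6 libraries, as had the 3 non-coding genes annotated within it, and 9130023H24Rik, which lies beyond Itgad, had 11, 0 and 53 counts untreated and 0, 56 and 74 under BPA. Of 12 striated muscle markers Ckm, Actc1, Myh1, Tnnt3, Mb and Myod1 were at 0 in every library. Acta1 had 0, 0 and 0 counts untreated and 7, 6 and 0 under BPA, and Tnni2 had 8, 23 and 0 and 0, 0 and 0. Mylpf, Myh7 and Ttn had at most 11 counts in a library. The summed level of the muscle list was 8.20 to 10.8 CPM untreated and 9.38 to 17.6 CPM under BPA, most of it Des (7.53 to 9.15 and 8.89 to 16.8 CPM).

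Cox6a2 remained the minor form of its pair. Per deposited gene length it made up 0, 0 and 0.0270% of the summed Cox6a1 and Cox6a2 level in untreated libraries and 4.70, 5.46 and 2.55% under BPA. The groups did not overlap, and the exact two-sided permutation test gave p = 0.1, the smallest that 3 against 3 samples allow (0.3 adjusted over 6 isoform pairs). The deposited lengths are not merged exon lengths (their ratio ran from 0.328 to 2.53 among these genes). With merged exon lengths of GENCODE vM21 the BPA mean was 2.54% in place of 4.24%. In FPKM, Cox6a1 was at 399 ± 29.1 untreated and 177 ± 31.8 under BPA, and Cox6a2 was at 7.97 ± 3.85 under BPA (SD, n = 3 per group).

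**Figure D4:**
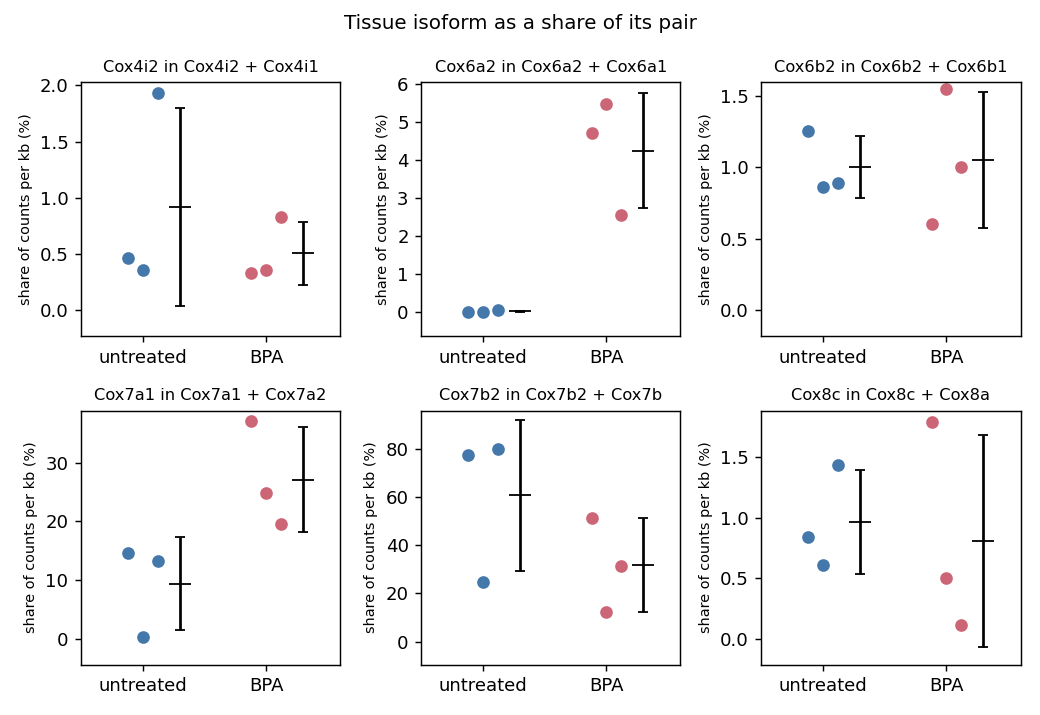
Share (%) of the tissue isoform in the summed level of its pair, as counts per kilobase of deposited gene length, in each untreated (blue) and BPA (red) library, with the group mean and SD in black. Cox6a2 lies at 0 to 0.0270% in untreated and 2.55 to 5.46% in BPA libraries, the groups also separate for Cox7a1, and the other 4 pairs overlap.

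Cox7a1, the heart and muscle form of subunit VIIa, followed another course. It had 174, 2 and 84 counts untreated (9.53, 0.157 and 6.10 CPM) and 150, 112 and 96 under BPA (9.82, 5.55 and 3.91 CPM), and did not pass the test (0.28, SE 0.88, edgeR adjusted p = 0.882). Beside the lower Cox7a2, its share of the pair per length was 14.7, 0.308 and 13.2% untreated and 37.1, 24.8 and 19.5% under BPA. The exact two-sided permutation test again gave p = 0.1, the smallest possible (0.3 adjusted over the 6 pairs).

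The isoforms known from testis and lung stayed low in both groups. Cox6b2, a testis form, was at 12.2, 8.08 and 10.2 CPM untreated and 2.88, 7.48 and 5.22 CPM under BPA. Its groups did not overlap, but it missed the threshold (-0.96, SE 0.47, edgeR adjusted p = 0.224). Its share of the pair with Cox6b1 per length was 0.860 to 1.25% untreated and 0.601 to 1.55% under BPA.

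Cox7b2, another testis form, had 173, 14 and 116 counts untreated and 80, 10 and 58 under BPA, with replicate 2 lowest in both groups (edgeR adjusted p = 0.424). Its share of the pair with Cox7b was 60.8 ± 31.2% and 31.7 ± 19.5%, a figure that rests on the uncertain counts of Cox7b described next. Cox8c, also of testis, had 41, 16 and 36 counts untreated and 30, 21 and 4 under BPA. Cox4i2, the lung form that is induced by low oxygen, had 40, 19 and 105 counts untreated and 16, 29 and 64 under BPA. Both had overlapping groups (edgeR adjusted p = 0.658 and 0.452), and in single libraries Cox8c made up 0.117 to 1.79% of its pair and Cox4i2 0.332 to 1.93%. The mean share of Cox4i2 was 0.919% untreated (0.413% without untreated replicate 3) and 0.506% under BPA, and that of Cox8c was 0.962% untreated and 0.805% under BPA (0.311% without BPA replicate 1). Cox8b, the muscle form of subunit VIII, had 0 counts in all 6 libraries, which allows up to 0.0286 CPM (3 counts over all libraries).

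Small respiratory genes have many processed copies, and 11 of the 36 genes had at least 50% of their coding sequence matched at 95% identity or more by another annotated transcript. They were Uqcr10, Uqcr11, Uqcrb, Cox5b, Cox6c, Cox7b, Cox7c, Cox16, Cox17, Cox20 and Cox7a2l, and their counts are uncertain, since how reads that fit both places were counted is not given in the sources used here. Of 6 copies listed in the table, Gm10012, a copy of Cox7c, had 1, 1 and 1 counts untreated and 0, 0 and 0 under BPA, Gm11273, a copy of Cox5b, had 37, 4 and 41 and 0, 13 and 2, and 4930481A15Rik, annotated as an antisense gene and matching 80.7% of the Uqcr10 coding sequence, had 45, 46 and 42 and 71, 225 and 161. Of the 8 lower genes Uqcr11, Cox6c and Cox7c are among the 11. Uqcrh, Uqcrc1, Cox7a2, Cox6a1 and Cox6b1 had no such match over any part of the coding sequence. Only the longest annotated transcript of each gene was searched, and copies outside the annotation could not be sought, so these genes may have copies too.

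Of the 10 genes grouped as assembly factors 8 were tested and 0 passed in either direction, in edgeR or DESeq2. In edgeR 1 of them, Cox15, had an unadjusted p under 0.05. Cox15 and Cox10, which make haem A for the catalytic core, had values of 8.44 to 12.3 CPM untreated and 13.0 to 24.5 CPM under BPA (Cox15) and of 57.5 ± 2.15 and 69.1 ± 11.5 CPM (Cox10). Each BPA value was above each untreated one for both genes (edgeR adjusted p = 0.0865 and 0.441). Cox7a2l, a factor of supercomplexes of complexes III and IV, was at 215 ± 27.3 and 172 ± 22.6 CPM (edgeR adjusted p = 0.251). Cox19, a copper-handling protein of the intermembrane space, was at 43.5 ± 8.26 and 32.9 ± 5.91 CPM, Cox18, the insertase for subunit 2, at 19.5 ± 4.93 and 27.1 ± 6.10 CPM, and Cox14 at 15.1 to 20.9 and 15.6 to 21.9 CPM.

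The remaining 4 could not be read well. Cox11, a copper chaperone, had 26, 80 and 6 counts untreated and 58, 11 and 45 under BPA, and 48.3% of its exon bases overlap another gene, mostly Tom1l1. Cox16 had 18, 0 and 15 and 59, 5 and 14, and 56.8% of its exon bases overlap another gene, mostly the read-through gene Gm20498. Cox17 and Cox20 were too low to be tested: Cox17 had 0, 0 and 13 and 0, 1 and 0 counts, and Cox20 had 18, 0 and 0 and 0, 0 and 0. The whole coding sequence of Cox17 is shared with Gm21987 (0 counts in every library), and 91.1% of the exon bases of Cox20 overlap another gene, mostly Hnrnpu.

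Of 20 tested assembly factors outside these names, 2 were lower and 0 higher (median log2 fold change 0.08), a share of lower genes not far from the 6.28% of all tested genes. Without BPA replicate 2, Bcs1l and Surf1 also passed as lower (edgeR adjusted p = 0.0429 and 0.00486) and Ttc19 as higher (0.00259). In that setting 1600 of all 13708 tested genes were lower and 1207 higher. Ttc19, a complex III assembly factor, was at 24.4, 25.2 and 23.9 CPM untreated and 48.6, 27.4 and 60.8 CPM under BPA. It missed the threshold with all libraries (edgeR adjusted p = 0.0743) and passed in DESeq2 (adjusted p = 0.0324) and in edgeR with no low-count filter (0.0228). Uqcc2, an assembly factor for cytochrome b of complex III, was at 165 ± 24.0 CPM untreated and 79.0 ± 2.76 CPM under BPA (-1.07, SE 0.17, edgeR adjusted p = 0.00232). Higd2a, which joins the enzymes into supercomplexes, was at 97.0 ± 22.2 and 47.1 ± 7.61 CPM (-1.04, SE 0.22, edgeR adjusted p = 0.0126). Leaving out untreated replicate 1 or 3, or BPA replicate 1, ended the Higd2a call (edgeR adjusted p up to 0.078), as did the GC and length correction (0.096). Surf1, needed early in cytochrome oxidase assembly, was at 57.6 ± 5.97 and 33.7 ± 9.14 CPM and missed the threshold (edgeR adjusted p = 0.0623), while DESeq2, and edgeR after the GC and length correction, called it lower (adjusted p = 0.0165 and 0.0241).

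Of 7 electron carriers and partners, 2 were lower and 0 higher, against 6.28% and 4.37% of all tested genes. Among genes with a mean of at least 20 CPM 11.9% were lower. Cycs, the cytochrome c that links the enzymes, was at 173 ± 22.4 CPM untreated and 87.2 ± 34.2 CPM under BPA (-0.99, SE 0.27, edgeR adjusted p = 0.035). Leaving out any untreated replicate, or BPA replicate 3, ended this call (edgeR adjusted p up to 0.139), as did scaling by library size (0.098). Of the subunits encoded in mitochondria, mt-Co1 and mt-Co2 had higher means under BPA and mt-Co3 and mt-Cytb lower ones. The values of mt-Co1, the subunit with the haem and copper centre that binds oxygen, were 8796 ± 1140 CPM untreated and 11230 ± 2079 CPM under BPA (0.35, SE 0.15, edgeR adjusted p = 0.152), and it passed as higher with scaling by library size, without BPA replicate 3 and with a replicate block (0.0272, 0.0378 and 0.0354). For mt-Co2 the values were 647 to 821 CPM and 771 to 1146 CPM (0.39, SE 0.16, edgeR adjusted p = 0.16), and mt-Co2 passed as higher with scaling by library size (0.0307). For mt-Cytb they were 1257 ± 286 and 939 ± 321 CPM (-0.42, SE 0.22, edgeR adjusted p = 0.26). The other lower gene was mt-Co3, at 5714 ± 926 and 3386 ± 849 CPM (-0.75, SE 0.18, edgeR adjusted p = 0.0194). This call ended when untreated replicate 1 or 2, or BPA replicate 3, was left out (edgeR adjusted p up to 0.114), with scaling by library size (0.0633) and with the GC and length correction (0.0615). The counts of mt-Co2 and mt-Co3 lay within 5% of those of nuclear copies on chromosome 1 (Gm28661 and Gm28437) in every library, so both values are uncertain.

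None of 13 tested regulators of respiratory genes passed in edgeR with all libraries (2 at an unadjusted p under 0.05). Without BPA replicate 2 there were 4: Tfam and Lrpprc passed as higher (edgeR adjusted p = 0.0303 and 0.0126) and Pprc1 and Esrra as lower (0.00337 and 0.0469). Calls were common over all genes in that setting, with 1600 lower and 1207 higher of 13708 tested. The transcription factor Nrf1 was at 101 to 123 CPM and 101 to 143 CPM and the mitochondrial DNA-binding factor Tfam at 19.5 ± 6.61 and 32.2 ± 14.3 CPM (edgeR adjusted p = 0.491 and 0.256). Tfb1m was at 3.09 ± 0.848 and 8.78 ± 1.94 CPM with no overlap (edgeR adjusted p = 0.0733), and DESeq2 called it higher (adjusted p = 0.0422).

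For the other respiratory enzymes the same fit gave the following counts. Of 36 tested complex I subunits 12 were lower and 0 higher (median log2 fold change -0.54), of 17 ATP synthase genes 5 and 0 (-0.41), and of 4 complex II genes 1 and 0 (-0.35), against 8 and 1 of 33 here (-0.48). Over all tested genes 6.28% were lower and 4.37% higher, and 11.9% were lower among genes with a mean of at least 20 CPM. No difference between these sets was tested.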

How the data were processed

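RNA libraries of mouse spermatogonial stem cells in culture (6 in all) were sequenced, and per gene the authors deposited read counts and FPKM values for each library. TopHat2 2.0.9, HTSeq and the mm10 build are named per the submitters' processing notes; which strand setting, HTSeq version and gene annotation were used is not stated in the labels. The deposited FPKM equalled the count per deposited gene length and library total within a relative 0.00092, and FPKM was used only to set levels of different genes side by side. No sample column of the table was left unused.

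Groups came from the sample titles. Raw counts of all genes were fitted with edgeR 4.0.16 in R 4.3.3 (filterByExpr, TMM scaling, glmQLFit and glmQLFTest, no replicate block), and p-values were Benjamini-Hochberg adjusted over the 13287 genes tested, with a threshold of 0.05. CPM values use TMM-scaled library sizes. Shares of isoforms were compared by exact two-sided permutation tests. Intervals and floors (3 counts) cover counting error only. Alternatives were DESeq2 1.42.0, limma 3.58.1 (voom), other scalings and filters, a replicate block, leaving out each library, and a lowess correction of every library by GC content and length of the genes. The fits were tested on simulated data. Near-identical copies were sought with BLAST 2.17.0 among the longest GENCODE vM21 transcripts of each gene. Isoforms were aligned with Biopython 1.88 and figures drawn with matplotlib 3.10.9 in Python 3.11.15.

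The genes, their roles, the context and marker lists and the motifs were chosen with earlier results of these data known. Values in every library are given for genes past the threshold and for tissue isoforms and their ubiquitous counterparts, other members are summarised, and in the context lists the genes past the threshold and a few fixed genes are named.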

Additional observations from a re-analysis of the deposited data

How the results depend on the processing

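With 3 libraries per group, and with BPA replicate 2 apart from the other BPA libraries, the number of lower genes depended most on single libraries: it was 5 to 12 when each was left out in turn, against 8, and 7 to 11 under the other alternatives. The number of higher genes was 1 in every alternative except scaling by library size alone, where it was 2 (Uqcrc2 added). That scaling moved the median of all genes by 0.11 on the log2 scale. The replicate numbers are shared between groups, but same-numbered libraries did not deviate together (correlations -0.02, 0.06 and 0.07). A replicate block gave 9 lower genes (Cyc1 added) and 1 higher, and over all genes 985 lower and 721 higher. Over all genes DESeq2 called 1206 lower and 919 higher, against 835 and 580, and leaving out BPA replicate 2 gave 1600 and 1207.

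Some genes that had not passed changed sign. With the GC and length correction Cyc1 was at 0.068 and Cox8a at 0.11. When each library was left out in turn, Uqcrb ranged from -0.030 (without BPA replicate 1) to 0.48, Cox7a1 from -0.28 (without untreated replicate 2; -0.15 without BPA replicate 1) to 1.03, Cox11 from -1.17 to 1.13 (without untreated replicate 2; 0.057 without BPA replicate 2), Cox14 from -0.097 (without BPA replicate 3; -0.022 without untreated replicate 3) to 0.16 and Cox16 from -0.74 (without BPA replicate 1) to 1.68. Cox11 was at 0.30 with the replicate block. The cause was not tested.

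Shares of isoforms depend on the gene length used. From raw counts the BPA mean shares were 0.222% for Cox4i2, 2.47% for Cox6a2, 5.53% for Cox6b2 (5.32% untreated) and 15.5% for Cox7a1. With merged exon lengths, an alternative chosen after seeing the data, they were 2.54% for Cox6a2 and 3.62% for Cox6b2 (3.47% untreated). The tissue isoforms, Cox11 and Cox16, with at most 222 counts in a library, have wide errors (SE up to 1.52 on the log2 scale), so that large changes could be missed.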
